A study of Mus musculus with 6 samples.

Results

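A set of 8 genes of the B7 family and of related checkpoint pathways was examined in RNA-seq libraries of mouse dendritic cells treated or not with DB2313. The genes were chosen by name from a given list: Cd80, Cd86, Icosl, Cd274, Pdcd1lg2, Cd276, Havcr2 and Lgals9. They were 8 of 54532 features in the deposited table, and all 8 were among the 14174 genes that passed the filter on low counts. The cells were mouse dendritic cells kept in culture in both groups. The 3 control libraries came from cells without DB2313, with no word on a vehicle in the sources used here, and the 3 others from cells given DB2313, a small molecule used in the study to block PU.1, the transcription factor encoded by Spi1. The labels give dendritic cells, the study's own text macrophages, and strain, age, dose and time were not given for these libraries in the sources used here (the study states a dose for macrophages and a time for a monocyte culture). The table named the control columns BMDC, the usual short form of bone marrow-derived dendritic cell, and the treated columns after Spi1 rather than DB2313. Every direction thus rests on reading the former as the control and the latter as the DB2313 libraries.

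B7 molecules are membrane proteins with which antigen-presenting cells set the outcome of T cell recognition. CD80 and CD86 bind CD28, which costimulates the T cell, and CTLA-4, which restrains it, and ICOSL binds ICOS. PD-L1 (Cd274) and PD-L2 (Pdcd1lg2) bind the inhibitory receptor PD-1, and galectin-9 (Lgals9) is a ligand of TIM-3 (Havcr2), a receptor that dendritic cells carry themselves.

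Of the 8 genes, 1 fell with DB2313 and 1 rose. Pdcd1lg2 was 44.3% lower (log2 fold change of -0.84 ± 0.12, SE, n = 3 each) and Lgals9 was 35.3% higher (0.44 ± 0.072), while Cd80, Cd86, Icosl, Cd274, Cd276 and Havcr2 did not pass the threshold of an adjusted p of 0.05 in the edgeR quasi-likelihood test. Over all genes tested, 10.6% were called changed, 4.66% higher and 5.94% lower. CPM (counts per 1000000, TMM-scaled) of the groups did not overlap for 3 of the 8 genes (Cd80, Pdcd1lg2 and Lgals9), against 27.4% of all genes tested. The median log2 fold change of the 8 genes was 0.092, and that of all genes tested was 0.00082. Counts over 8 genes do not set the group apart from this background, and the results below concern single genes.

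**Figure D1:**
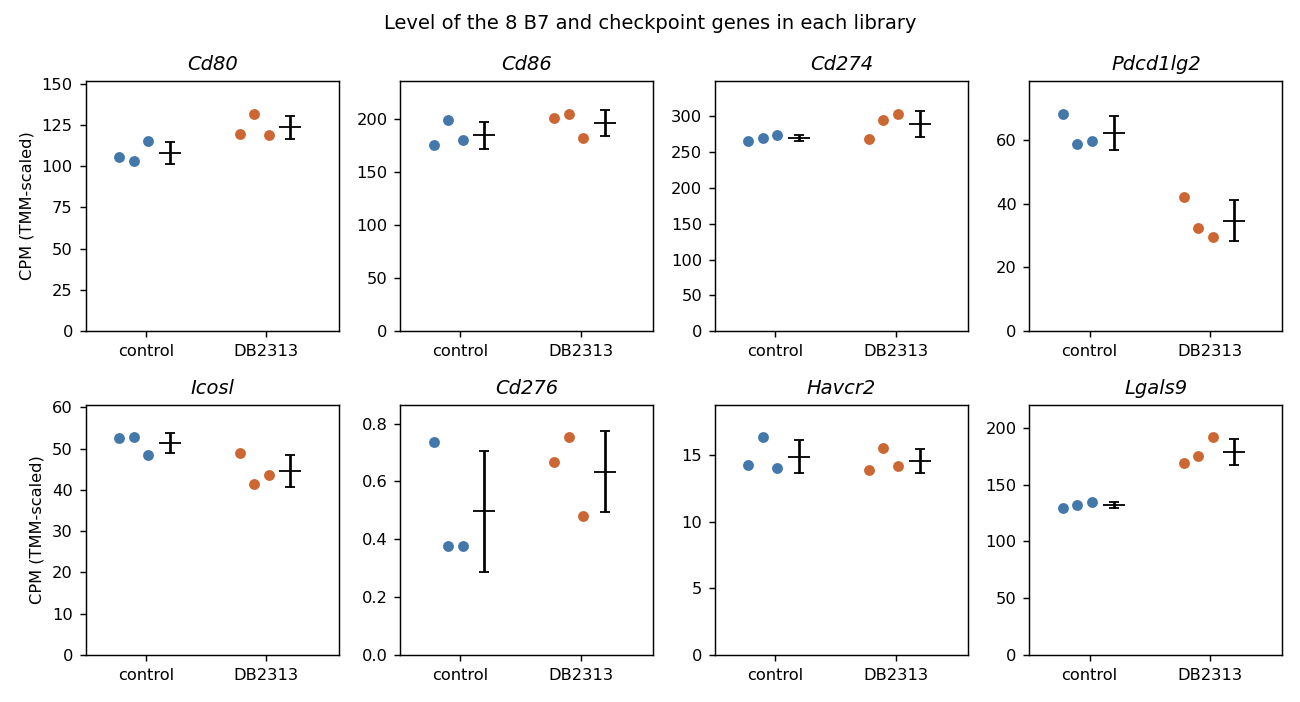
TMM-scaled CPM of each of the 8 genes in the 3 control libraries (blue) and the 3 DB2313 libraries (orange), with the mean and SD of each group in black; each panel has its own vertical axis starting at 0. The DB2313 libraries lie below all controls for Pdcd1lg2 and above all controls for Lgals9 and Cd80.

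Libraries held 16146743 to 19764677 counts, and the biological coefficient of variation was 9.66%. Spi1 itself, which DB2313 is meant to inhibit as a protein, had 366 ± 18.4 CPM in control and 329 ± 20.1 CPM in DB2313 libraries (SD, n = 3 each), a log2 fold change of -0.15 ± 0.071 (SE, adjusted p = 0.206), with overlapping groups. Of 17 dendritic cell markers, 14 were above 10 CPM, among them Itgax (172 ± 4.26 CPM in control), Zbtb46 (85.0 ± 5.79 CPM) and Flt3 (33.0 ± 4.04 CPM). Xcr1, Clec9a and Cd209a were not, with control means of 1.04, 0.77 and 0.021 CPM. Markers of other cells were present too. Of 15 macrophage markers 14 were above 10 CPM, as were all 11 neutrophil markers, 8 of 10 mast cell and basophil markers, 8 of 13 T and NK cell markers, 2 of 9 fibroblast and endothelial markers (Col3a1 and Dcn had 0 counts in all libraries) and 0 of 7 B cell markers. Summed macrophage markers ran from 10570 to 11980 CPM in control and from 9381 to 10270 CPM in DB2313 libraries, with 10 of 15 markers lower and 1 higher. Most of this sum was Lyz2, which was not called (8751 ± 699 CPM in control and 7887 ± 348 CPM in DB2313 libraries, adjusted p = 0.218). Summed dendritic cell markers ran from 12950 to 13080 CPM in control and from 11160 to 12680 CPM in DB2313 libraries, with 4 lower and 2 higher. The lower ones were Itgax (115.5 ± 12.55 CPM in DB2313 libraries, adjusted p = 0.000322), Batf3, Sirpa and Irf4. The higher ones were Clec10a and Clec9a (3.36 ± 0.898 CPM in DB2313 libraries, adjusted p = 0.0017). Cd74 was the largest part of the dendritic cell sum and was not called (6557 ± 87.7 CPM in control and 5999 ± 608 CPM in DB2313 libraries, adjusted p = 0.326). Each sum thus follows its most abundant transcripts. The sums overlapped between the groups for neutrophils (4476 to 5024 and 4526 to 5936 CPM, 3 markers higher and 1 lower), mast cells and basophils (2521 to 2721 and 2570 to 3079 CPM, 2 higher), T and NK cells (374 to 421 and 363 to 466 CPM) and fibroblasts and endothelium (93.1 to 102 and 95.2 to 108 CPM). B cell markers summed to 3.26 to 4.80 CPM in control and 5.05 to 6.44 CPM in DB2313 libraries, without overlap. In the last 3 lists only 12 T and NK cell markers, 4 fibroblast and endothelial markers and 1 B cell marker were tested. EdgeR, robust edgeR, limma-voom and DESeq2 each called 0 of them. The B cell marker tested was Cd79b (3.01 ± 0.597 CPM in control and 4.90 ± 0.817 CPM in DB2313 libraries, edgeR adjusted p = 0.0873). With so few genes tested, 0 calls say little about the B cell list. In edgeR's test the unadjusted p was under 0.05 for 1 T and NK cell marker, 1 B cell marker and 0 fibroblast or endothelial markers. The part of these markers in the results below was not tested. In such bulk libraries, fewer cells of a type and less RNA per cell cannot be told apart.

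Among the costimulatory ligands, Cd80 (CD80, ENSMUSG00000075122, GRCm38 chr16:38455561-38496335, plus strand) had 105, 103 and 116 CPM in the control libraries and 120, 132 and 119 CPM in the DB2313 libraries. Every DB2313 library was above every control library, though the nearest pair lay close together. The group means were 108 ± 6.61 and 123 ± 7.28 CPM (SD, n = 3 each). The log2 fold change was 0.19 ± 0.077 (SE), with a 95% interval of 0.029 to 0.36 and an adjusted p of 0.137, so Cd80 did not pass the test over all genes.

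Cd86 (CD86, ENSMUSG00000022901, chr16:36603869-36666081, minus strand), the other ligand of CD28 and CTLA-4, had 175, 198 and 179 CPM in control and 200, 205 and 182 CPM in DB2313 libraries. The groups overlapped, since the second control library was above the third DB2313 library. The log2 fold change was 0.085 ± 0.076 (SE, adjusted p = 0.557), with a 95% interval of the fold from 0.949 to 1.19.

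Icosl (ICOSL, ENSMUSG00000000732, chr10:78069302-78083913, plus strand), the ligand of ICOS, had 52.6, 52.8 and 48.5 CPM in control and 48.9, 41.4 and 43.6 CPM in DB2313 libraries. The groups met at one point, where the highest DB2313 library exceeded the lowest control. The log2 fold change was -0.20 ± 0.089 (SE), with a 95% interval from -0.39 to -0.011 and an adjusted p of 0.185. As for Cd80, the interval of this single gene left out 0 while the p adjusted over all genes missed the threshold.

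Pdcd1lg2 and Cd274, the ligands of PD-1, are neighbours on chromosome 19. Cd274 (PD-L1, ENSMUSG00000016496) lies at chr19:29367455-29388095 and Pdcd1lg2 (PD-L2, ENSMUSG00000016498) at chr19:29410919-29471157, both on the plus strand, with 22823 bp between them. Their RefSeq promoter windows (GRCm38.p6, 250 bases before to 50 after the RefSeq gene start, 5′ to 3′ on the plus strand) are shown because Pdcd1lg2 passed the test and Cd274 did not. Capitals mark the motifs that were searched on both strands: the PU.1 core GAGGAA, a kappa B site, the STAT site TTCNNNGAA and the interferon-stimulated response element GAAANNGAAA. The first is chr19:29410669-29410968 and the second chr19:29367188-29367487.
Pdcd1lg2: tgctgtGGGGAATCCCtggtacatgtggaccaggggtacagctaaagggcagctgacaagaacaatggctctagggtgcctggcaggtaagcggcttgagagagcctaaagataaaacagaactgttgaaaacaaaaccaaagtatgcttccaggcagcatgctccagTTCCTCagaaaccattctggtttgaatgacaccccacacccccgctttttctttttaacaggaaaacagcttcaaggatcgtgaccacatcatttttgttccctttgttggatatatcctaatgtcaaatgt
Cd274: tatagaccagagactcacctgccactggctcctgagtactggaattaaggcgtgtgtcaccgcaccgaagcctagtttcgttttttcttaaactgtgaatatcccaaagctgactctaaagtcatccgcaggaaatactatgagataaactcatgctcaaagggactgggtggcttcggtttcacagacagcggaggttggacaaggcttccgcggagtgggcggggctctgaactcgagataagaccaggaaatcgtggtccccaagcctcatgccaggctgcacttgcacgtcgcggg
The Pdcd1lg2 window held the PU.1 core once, on the minus strand at -82 to -77 from the gene start, and a kappa B site at -244 to -235. The Cd274 window held none of the 4 motifs. Of 32851 RefSeq windows of this length, 28.3% held the PU.1 core, 8.46% a kappa B site, 8.3% the STAT site and 3.44% the response element, and no match overlapped that of another motif in the windows of the 8 genes, though the kappa B site of Pdcd1lg2 matched on both strands at the same bases. The matches describe the letters, and no binding was measured.

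Pdcd1lg2 had 68.2, 58.5 and 59.7 CPM in the control libraries, from 1109, 933 and 952 reads. In the DB2313 libraries it had 42.0, 32.4 and 29.6 CPM, from 692, 646 and 492 reads. All DB2313 libraries lay well below all controls, and the highest of them was the first. The group means were 62.1 ± 5.27 and 34.7 ± 6.53 CPM (SD, n = 3 each). Pdcd1lg2 fell by 0.84 ± 0.12 on the log2 scale (SE), to 0.557 of the control level with a 95% interval of 0.469 to 0.663 (adjusted p = 0.000288).

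Cd274 had 266, 270 and 273 CPM in control and 269, 294 and 304 CPM in DB2313 libraries. The control libraries were close to each other, and the first DB2313 library lay among them. The group means were 270 ± 3.93 and 289 ± 18.1 CPM (SD, n = 3 each). The log2 fold change was 0.099 ± 0.069 (SE, adjusted p = 0.431), and the 95% interval of the fold ran from 0.968 to 1.19. Cd274 shares 511 exonic bp with an antisense gene and stretches of 100 to 137 bp at 95% identity or more with 20 other genes, and whether the reads were counted by strand was not given in the sources used here.

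**Figure D2:**
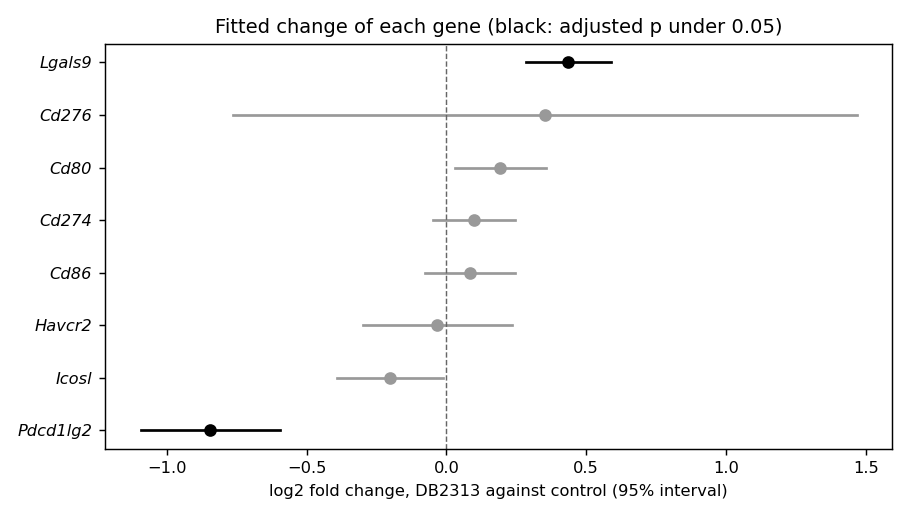
Fitted log2 fold change of DB2313 against control for each of the 8 genes (points) with its 95% interval (lines), black where the adjusted p was under 0.05 and grey otherwise. Pdcd1lg2 stands at -0.84 and Lgals9 at 0.44, while Cd276, counted in few reads, has the widest interval.

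The genes around this pair were then read, a choice made after the values were seen. Within 250 kb on each side, 14 genes were annotated and 11 tested. Lower levels passed the test for 3 of them, Pdcd1lg2, Jak2 and the noncoding A930007I19Rik, and 0 were called higher by edgeR, limma-voom or DESeq2 (0 also at an unadjusted p under 0.05). Pdcd1lg2 is in this count only because the window was drawn around it, and over all genes tested 5.94% were called lower. Plgrkt, a plasminogen receptor gene on the other side of Cd274, had a log2 fold change of 0.059 (adjusted p = 0.769). A930007I19Rik, which follows Pdcd1lg2 on the minus strand, fell by 0.51 ± 0.14 on the log2 scale (SE, adjusted p = 0.0296), and its span overlaps that of Ric1, at 0.13 (adjusted p = 0.507, but 0.0468 without DB2313 replicate 1). The call of A930007I19Rik was lost without control replicate 1 or 3 or DB2313 replicate 1 (adjusted p = 0.109, 0.14 and 0.0653). Jak2, the kinase that carries interferon-gamma signals, fell by 0.26 ± 0.07 on the log2 scale (SE, adjusted p = 0.0272), a call lost without control replicate 1, 2 or 3 or DB2313 replicate 2 (adjusted p = 0.0719, 0.194, 0.0615 and 0.113). Differences in response between these genes were tested only as the ratio of Cd274 to Pdcd1lg2.

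**Figure D3:**
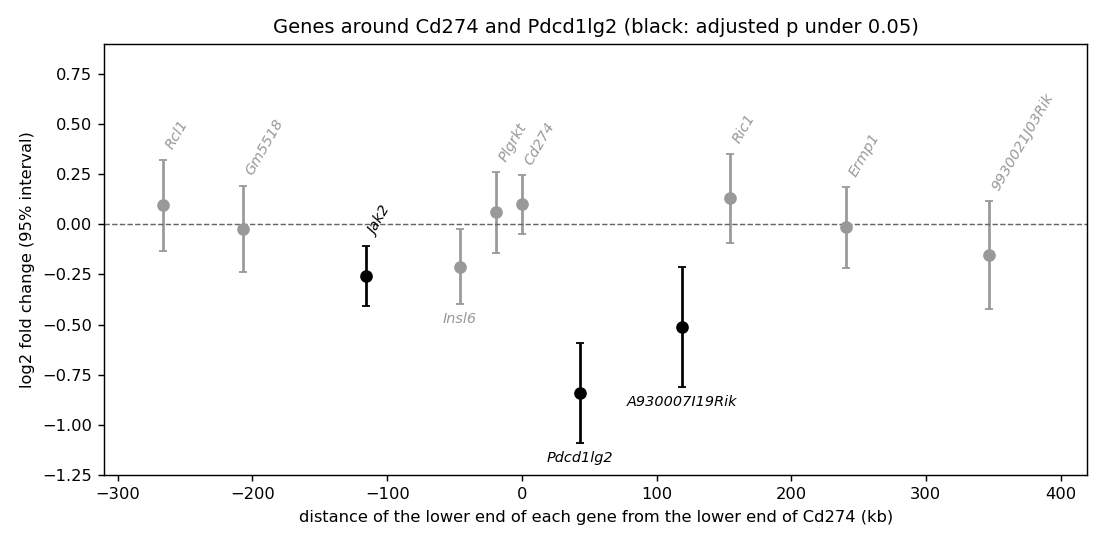
Log2 fold change with its 95% interval for the 11 tested genes around Cd274 and Pdcd1lg2, against the distance in kb of the lower end of each gene from that of Cd274, black where the adjusted p was under 0.05. Pdcd1lg2 at -0.84 is the lowest point, Cd274 at 0.099 lies near 0, and Jak2 and A930007I19Rik are the other genes in black.

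Cd276 (B7-H3, ENSMUSG00000035914, chr9:58524298-58555437, minus strand), a B7 protein without an established T cell receptor, was close to the limit of detection. It had 12, 6 and 6 reads in control and 11, 15 and 8 reads in DB2313 libraries, with overlapping groups. The means were 0.497 ± 0.209 and 0.634 ± 0.139 CPM (SD, n = 3 each). The log2 fold change was 0.35 ± 0.52 (SE, adjusted p = 0.752), and the 95% interval of the fold, 0.589 to 2.76, was wide, so a change within it was not detectable at this depth. Cd276 shares 416 exonic bp with the antisense gene Gm10657, which had 4 reads in the first DB2313 library and 0 in the others.

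Lgals9 and Havcr2 code for a ligand and its receptor. Their RefSeq promoter windows are shown for the same reason as above, with the same motifs in capitals. The Lgals9 window is chr11:78984875-78985174 on the minus strand and that of Havcr2 is chr11:46454681-46454980 on the plus strand (GRCm38.p6).
Lgals9: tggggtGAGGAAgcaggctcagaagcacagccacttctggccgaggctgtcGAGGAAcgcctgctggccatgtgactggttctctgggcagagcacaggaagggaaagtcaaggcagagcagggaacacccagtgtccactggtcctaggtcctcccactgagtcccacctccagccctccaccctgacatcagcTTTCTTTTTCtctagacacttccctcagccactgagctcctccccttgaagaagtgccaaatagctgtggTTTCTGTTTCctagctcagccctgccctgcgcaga
Havcr2: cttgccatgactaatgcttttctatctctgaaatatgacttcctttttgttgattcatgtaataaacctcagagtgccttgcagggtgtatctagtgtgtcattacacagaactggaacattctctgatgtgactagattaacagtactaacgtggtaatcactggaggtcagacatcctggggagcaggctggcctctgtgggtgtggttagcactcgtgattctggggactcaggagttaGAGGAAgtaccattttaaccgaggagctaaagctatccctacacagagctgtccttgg
The Lgals9 window held the PU.1 core at -244 to -239 and at -199 to -194, and the interferon-stimulated response element on the opposite strand at -55 to -46 and at 16 to 25. The Havcr2 window held the PU.1 core once, at -8 to -3. Of the others, Cd276 held the PU.1 core once (-126 to -121), Icosl a kappa B site (-111 to -102) and Cd80 none of the 4. The windows of Cd80 (chr16:38458683-38458982) and Cd276 (chr9:58554984-58555283) lie inside the gene spans given here. Neither window covers the bases before the start of its span.

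Lgals9 (galectin-9, ENSMUSG00000001123, chr11:78962974-78984946, minus strand), a secreted lectin that binds sugars on cell surfaces, had 130, 132 and 135 CPM in control, from 2107, 2100 and 2152 reads. In the DB2313 libraries it had 169, 176 and 192 CPM, from 2787, 3499 and 3188 reads. The lowest DB2313 library was far above the highest control, and the DB2313 libraries were spread more widely. The means were 132 ± 2.73 and 179 ± 11.5 CPM (SD, n = 3 each). Lgals9 rose by 0.44 ± 0.072 on the log2 scale (SE), a fold of 1.35 with a 95% interval of 1.22 to 1.51 (adjusted p = 0.00112).

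Havcr2 (TIM-3, ENSMUSG00000020399, chr11:46454935-46481255, plus strand) had 14.3, 16.3 and 14.1 CPM in control and 13.8, 15.6 and 14.2 CPM in DB2313 libraries. The groups lay over each other. The log2 fold change was -0.033 ± 0.13 (SE, adjusted p = 0.916), and the 95% interval of the fold ran from 0.812 to 1.18. Its sign turned when the second control library or the first DB2313 library was left out (log2 fold changes of 0.044 and 0.0019).

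Levels were compared between genes only per length, as TPM (counts per base of gene length, scaled to 1000000 per library) computed from the deposited counts and gene lengths. In control libraries the order of mean TPM was Cd274 (203 ± 1.52), Lgals9 (168 ± 1.58), Cd86 (137 ± 9.78), Pdcd1lg2 (103 ± 9.49), Cd80 (79.4 ± 3.90), Icosl (30.3 ± 1.797), Havcr2 (14.9 ± 1.35) and Cd276 (0.371 ± 0.159, all SD, n = 3). No neighbours in this order had overlapping ranges. PD-L1 was thus the most abundant transcript of the 8 per length, with a mean TPM above that of 95.2% of tested genes, whereas Cd276 was above only 2.07%. In DB2313 libraries Lgals9 (227 ± 26.5 TPM) and Cd274 (216 ± 24.6 TPM) had overlapping ranges, 203 to 255 and 190 to 239 TPM. Below them Cd86 (144 ± 6.31 TPM) and Cd80 (90.1 ± 6.96 TPM) were followed by Pdcd1lg2 (56.6 ± 7.67 TPM), so Cd80 and Pdcd1lg2 exchanged places, and Icosl, Havcr2 and Cd276 kept theirs at 26.1, 14.5 and 0.466 TPM.

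The balance between ligands was read as 4 ratios of TPM within each library, tested by an exact two-sided permutation of 3 against 3, which cannot give a p below 0.1. The ratio of Cd274 to Pdcd1lg2 was 1.77, 2.10 and 2.08 in control and 2.90, 4.13 and 4.66 in DB2313 libraries. Its mean went from 1.98 ± 0.185 to 3.90 ± 0.902 (SD, n = 3 each, exact p = 0.1, the smallest possible, 0.133 adjusted over the 4 ratios). The ratio of Cd80 plus Cd86 to Cd274 plus Pdcd1lg2 was 0.665, 0.744 and 0.718 in control and 0.872, 0.906 and 0.802 in DB2313 libraries, again without overlap (exact p = 0.1, 0.133 adjusted). So the sum of the CD28 ligands stayed below that of the PD-1 ligands in all 6 libraries.

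The ratio of Lgals9 to Havcr2 was 11.6, 10.3 and 12.2 in control and 15.6, 14.4 and 17.2 in DB2313 libraries, without overlap (exact p = 0.1, 0.133 adjusted). The ratio of Cd86 to Cd80 was 1.68, 1.95 and 1.57 in control and 1.69, 1.57 and 1.54 in DB2313 libraries, and the groups overlapped (exact p = 0.4, 0.4 adjusted). No ratio could pass a threshold of 0.05 in this design.

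**Figure D4:**
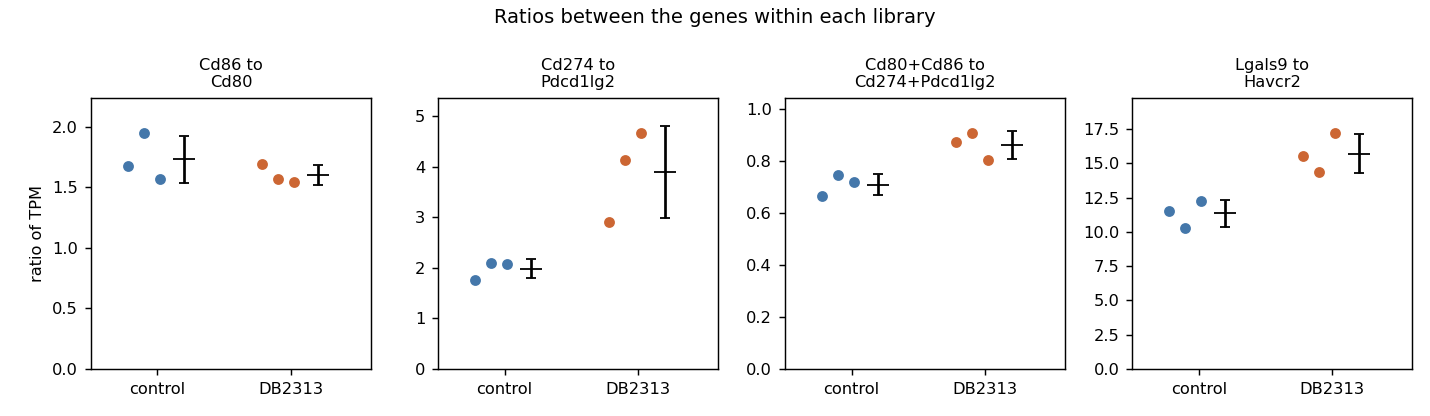
Ratios of TPM within each library in control (blue) and DB2313 (orange) libraries, with the mean and SD of each group in black; each panel has its own vertical axis starting at 0. The groups are separate for Cd274 to Pdcd1lg2, for Cd80 plus Cd86 to Cd274 plus Pdcd1lg2 and for Lgals9 to Havcr2, and overlap for Cd86 to Cd80.

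For the 2 genes called changed, the most similar patterns over the 6 libraries were sought among 9812 genes with a mean log2 CPM of at least 3, by Pearson's r of log2(CPM + 0.5). Closest to Pdcd1lg2 were Pak1, a kinase of the cytoskeleton (r = 0.998), C1qc, a chain of complement C1q (r = 0.995), and Rsu1, a protein of cell adhesion (r = 0.994), and 169 genes had an r above 0.95. Closest to Lgals9 were Dnajc10, a chaperone of the endoplasmic reticulum (r = 0.999), Fcgr1, the high-affinity Fc receptor for IgG (r = 0.998), and Ifit1, an interferon-induced antiviral protein (r = 0.998), and 184 genes had an r above 0.95. Rsu1 was itself not called (log2 fold change of -0.18, adjusted p = 0.138). These values describe 6 libraries in 2 groups, so a high r can come from a group difference in the same direction alone.

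The receptors of these ligands were measurable in the same cultures. Of 8 genes listed as receptors or partners, 2 rose, 1 fell and 5 did not pass, with a median log2 fold change of 0.27. Rgmb, a partner of PD-L2 on other cells, fell from 32.7 ± 2.74 to 19.2 ± 3.91 CPM (log2 fold change of -0.77 ± 0.14, SE, adjusted p = 0.00182). Trem2, a lipid receptor of macrophages that is not an established receptor of any of the 8, rose from 111 ± 6.42 to 151 ± 6.43 CPM (0.44 ± 0.074, adjusted p = 0.00131). Cd28 was measured at 18.2 ± 2.92 and 24.2 ± 1.35 CPM (log2 fold change of 0.41 ± 0.12, adjusted p = 0.0458). Its call was lost without control replicate 2 or 3 (adjusted p = 0.191 and 0.175) or DB2313 replicate 2 or 3 (adjusted p = 0.155 and 0.0535).

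Pdcd1, the receptor PD-1, had 4.42 ± 0.338 CPM in control and 6.89 ± 1.44 CPM in DB2313 libraries (log2 fold change of 0.64 ± 0.21, adjusted p = 0.0615), and it passed the threshold without DB2313 replicate 1 or 3 (adjusted p = 0.0431 and 0.0212). Ctla4 had 2.31 ± 0.652 and 3.66 ± 0.698 CPM (0.67 ± 0.29, adjusted p = 0.175). Icos had 16.8 ± 0.676 and 13.1 ± 2.59 CPM (-0.36 ± 0.15, adjusted p = 0.143) and passed without DB2313 replicate 1 (adjusted p = 0.0252). The T and NK cell markers in the same libraries are given above, and their part in these receptor levels was not tested.

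Several genes control how long the ligands stay at the surface. Of 13 tested genes of turnover and trafficking, 1 rose, 2 fell and 10 did not pass, with a median log2 fold change of -0.037. Cmtm6, which protects PD-L1 from degradation, fell from 353 ± 13.6 to 271 ± 8.93 CPM (-0.38 ± 0.066 on the log2 scale, adjusted p = 0.0017). B3gnt3, a glycosyltransferase that modifies PD-L1, rose from 16.2 ± 1.67 to 24.9 ± 1.40 CPM (0.63 ± 0.11, adjusted p = 0.00232). Cop1, a ubiquitin ligase, fell from 68.9 ± 5.04 to 54.7 ± 4.54 CPM (-0.33 ± 0.089, adjusted p = 0.0252). It shares stretches of at least 100 bp with 45 other genes, and its call was lost without control replicate 1 or 2 (adjusted p = 0.14 and 0.11) and with an offset for gene length (log2 fold change of -0.20, adjusted p = 0.223).

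Interferon-gamma is a known inducer of PD-L1 and PD-L2. Of 14 genes of its route, 2 rose, 2 fell and 10 did not pass, with a median log2 fold change of -0.083. Ifngr1, a chain of the receptor, rose from 206 ± 11.6 to 268 ± 7.61 CPM (0.38 ± 0.069, adjusted p = 0.00214). Jak2 was measured at 751 ± 52.2 and 628 ± 22.7 CPM and Irf2, a transcription factor, at 101 ± 2.95 and 84.9 ± 4.18 CPM (-0.24 ± 0.075, adjusted p = 0.0494). Both calls were lost when 1 library was left out. Without control replicates 1, 2 and 3 and DB2313 replicate 2 in turn, the adjusted p was 0.0719, 0.194, 0.0615 and 0.113 for Jak2 and 0.112, 0.223, 0.147 and 0.128 for Irf2, which also lost its call without DB2313 replicate 3 (0.0714). Irf2 lost its call in 11 of 16 alternatives, among them DESeq2 size factors (0.0543), library totals (0.0721), no filter (0.0952) and the gene-length offset (0.0804).

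Relatives of the 8 genes were read last. Of 9 genes listed with the other B7 and butyrophilin genes, 5 were tested and 0 called, with a median log2 fold change of -0.055. The tested genes include Btla, Cd160 and Tnfrsf14, which belong to neither family, so few tested genes of the list are relatives. Of 10 other TIM and galectin genes, 5 were tested and 0 called, with a median of 0.19. In edgeR's test the unadjusted p was under 0.05 for 2 genes of the first list, Btla and Tnfrsf14, and 1 of the other. Tnfrsf14, a receptor of the TNF family that binds BTLA and CD160, had a log2 fold change of -0.48 ± 0.16 (SE, adjusted p = 0.0662), and was called in 6 of 16 alternatives. These were limma-voom (adjusted p = 0.0453), DESeq2 (0.0354), no filter (0.00118), the gene-length offset alone (0.0494) or with the replicate block (0.0302), and the fit without DB2313 replicate 3 (0.000108, log2 fold change of -0.73). Tnfrsf14 shares stretches of 121 to 162 bp with 40 other genes. Lgals1, galectin-1, had a log2 fold change of 0.25 ± 0.082 (SE, adjusted p = 0.0619), and was called in 4 of 16 alternatives, by DESeq2 (adjusted p = 0.0357), with library totals (0.0364), with no filter (0.0129) and without DB2313 replicate 3 (0.000571). The difference between Lgals9 and the other galectins was not tested.

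**Figure D5:**
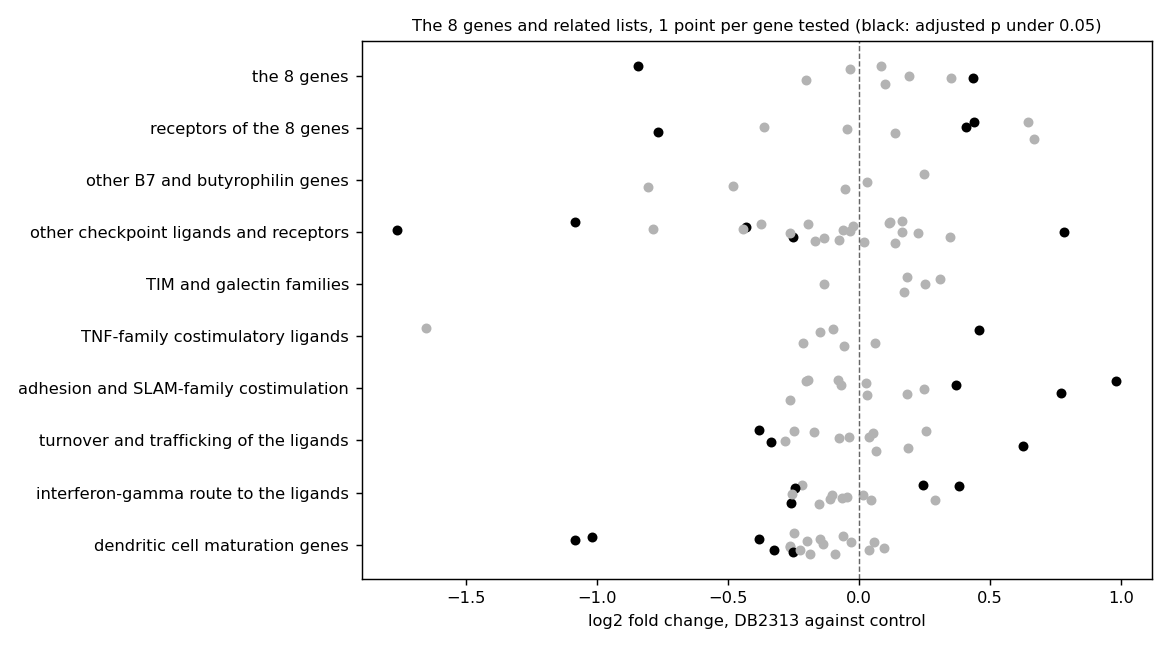
Log2 fold change of DB2313 against control for each tested gene of the 8 and of 9 related lists, 1 point per gene with random vertical spread, black where the adjusted p was under 0.05. Called genes fall on both sides of 0 in the lists of receptors, turnover and the interferon-gamma route. The list with other B7 and butyrophilin genes and that of TIM and galectin genes have no black point at this threshold.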

How the data were processed

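Raw counts of reads per gene and gene lengths in bp were deposited by the authors as 1 table with 6 columns, 1 for each library. Per the labels, the processing notes name CASAVA 1.8, HISAT2 2.0.5 and featureCounts 1.5.0-p3, whereas the study's methods name LifeScope on an Illumina HiSeq. Strandedness and the treatment of multiply mapped reads were not given in the sources used here. GENCODE M21 held 54409 of the gene identifiers, 98.33% of them at identical coordinates, so positions are given as GRCm38. For Pdcd1lg2 the end differed (29471161 in GENCODE). Replicates carry numbers only, and whether they are separate cultures was not stated, so p-values measure the spread between these libraries.

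Counts were tested with edgeR 4.0.16 (R 4.3.3) by quasi-likelihood (TMM scaling, filterByExpr, group as the only term, Benjamini-Hochberg adjustment over 14174 genes). On counts simulated with 2-fold changes, this test recovered 86.5% of 193 changed genes, with 5 false calls. Smaller changes, such as that of Lgals9, were not simulated, so the check does not cover them. A gene was called at an adjusted p under 0.05, and all adjusted p-values of single genes are from this test unless another is named. Intervals cover 95%. The study named DESeq2, which was an alternative (1.42.0), as were limma-voom (3.58.1), robust edgeR, DESeq2 size factors, scaling by library totals, a filter at a mean of 10 counts or none, an offset for gene length (lowess, span 0.3), a replicate block, both together, and leaving out each library. Copies were searched with blastn 2.17.0 at 95% identity over at least 100 bp. Promoters of 7 of the 8 genes came from RefSeq (GRCm38.p6).

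The 8 genes and the other lists (9 related lists and 7 of cell markers) were chosen with earlier results of these data known. Named were the 8 genes, Spi1, Cd28, Ctla4, Pdcd1 and Icos, at most 4 called genes with the smallest p of each related list, and the 3 genes with the pattern nearest to each called gene of the 8. Marker genes, Plgrkt, A930007I19Rik, Ric1, Tnfrsf14, Btla, Cd160, Lgals1 and Icam1 were named after their values were seen. The values of 1 gene of the related lists are not reported here.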

Additional observations from a re-analysis of the deposited data

How the results depend on the processing

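Of the 8 genes, 2 were called changed under all 16 alternatives. Pdcd1lg2 ranged from -1.0 to -0.743 on the log2 scale (highest adjusted p = 0.00534, edgeR) and Lgals9 from 0.39 to 0.48 (highest adjusted p = 0.0131). Cd80 ranged from 0.14 to 0.25 (adjusted p = 0.0518 to 0.485), Icosl from -0.27 to -0.15 (0.0593 to 0.535), Cd86 from 0.05 to 0.15 and Cd274 from 0.063 to 0.15, and none of them passed. Cd276 ranged from 0.19 to 0.75 over 15 alternatives and was not tested at a mean of at least 10 counts. With 1 library left out, Havcr2 ranged from -0.085 to 0.044, with its sign turned without control replicate 2 (0.044) and without DB2313 replicate 1 (0.0019). Over all genes, leaving out 1 library gave 328 to 1097 higher and 411 to 1311 lower, both lowest without DB2313 replicate 2 and highest without DB2313 replicate 3. Spi1 passed only with the offset for gene length (-0.18, adjusted p = 0.0438). The causes were not tested. Same-numbered libraries did not deviate together (correlations of -0.008, -0.019 and -0.15). Whether the numbers pair the samples was not stated, and these correlations cannot decide it, since paired samples may share little deviation. With a replicate block, 502 genes were higher and 629 lower, Pdcd1lg2 was at -0.85 (adjusted p = 5.26e-05) and Lgals9 at 0.44 (adjusted p = 0.00396), and the other 6 genes stayed uncalled, while the calls of Cd28, Jak2, Irf2 and A930007I19Rik were among those lost. With 1 library left out, Plgrkt ranged from -0.023 to 0.124 and turned without control replicate 2 (-0.023) and DB2313 replicate 1 (-0.0016), and Ric1 ranged from -0.004 to 0.249 and turned without DB2313 replicate 3 (-0.004). Depth limits Cd276, whose interval of the fold reaches 2.76.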

Other observations

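Other genes of costimulation were read beside the B7 genes. Of 12 tested genes of adhesion and SLAM-family costimulation, 3 rose, 0 fell and 9 did not pass in edgeR's test, with a median log2 fold change of 0.029. Of those that were lower, 2 had an unadjusted p under 0.05, and limma-voom called 0 and DESeq2 1 of them, Icam1. Cd244a, the receptor 2B4 of NK cells and some myeloid cells, rose from 18.5 ± 0.582 to 36.5 ± 6.63 CPM (SD, n = 3 each, log2 fold change of 0.98 ± 0.13, SE, edgeR adjusted p = 0.000147). Slamf9 rose from 19.9 ± 0.461 to 33.9 ± 3.03 CPM (0.77 ± 0.10, adjusted p = 0.000194) and Ly9 from 70.7 ± 2.56 to 91.3 ± 4.32 CPM (0.37 ± 0.076, adjusted p = 0.00548). Of 7 tested TNF-family costimulatory ligands, 1 rose and 6 did not pass (median -0.10), and limma-voom and DESeq2 called the same number. It was Tnfsf4, the ligand of OX40, which went from 92.5 ± 3.40 to 127 ± 10.45 CPM (0.46 ± 0.079, adjusted p = 0.0015).

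A list of other checkpoint ligands and receptors also holds enzymes such as Arg1. Of its 24 tested genes, 1 rose, 4 fell and 19 did not pass, with a median log2 fold change of -0.068. Arg1, the enzyme that degrades arginine, fell from 59.1 ± 5.01 to 17.5 ± 3.33 CPM (-1.76 ± 0.12, adjusted p = 7.09e-07). Cd200 fell from 62.5 ± 4.30 to 29.5 ± 3.05 CPM (-1.08 ± 0.097, adjusted p = 5.33e-06). Its receptor Cd200r1 fell from 87.4 ± 11.1 to 64.8 ± 3.61 CPM (-0.43 ± 0.094, adjusted p = 0.00802), a call lost without control replicate 1 (adjusted p = 0.0644). Tigit, a receptor of T and NK cells, rose from 5.88 ± 0.558 to 10.1 ± 0.669 CPM (0.78 ± 0.16, adjusted p = 0.00575). Of 19 tested genes of dendritic cell maturation, 0 rose, 5 fell and 14 did not pass (median -0.20), and 0 were higher at an unadjusted p under 0.05 or in limma-voom or DESeq2. In the lower direction, 11 had an unadjusted p under 0.05 in edgeR's test. Robust edgeR and limma-voom each called 6 of this list lower, and DESeq2 called 7. Over all genes tested, edgeR called 5.94% lower. Cd200 is in this list too, and the others named are Il12b, a subunit of interleukin-12 (-1.02 ± 0.12, adjusted p = 4.88e-05), Relb (-0.38 ± 0.077, adjusted p = 0.00449) and Nfkb2 (-0.32 ± 0.066, adjusted p = 0.00519), both NF-kappa B subunits. Relb shares stretches of 103 to 125 bp with 32 other genes, and the call of Nfkb2 was lost without control replicate 3 (adjusted p = 0.0563).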
